A study of Mus musculus with 4 samples.

Results

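The granulocyte-monocyte fate factors read here are 9 transcription factor genes chosen by name, *Spi1* (which encodes PU.1), *Irf8*, *Gfi1*, *Ikzf1*, *Etv6*, *Zeb2*, *Id2*, *Klf4* and *Elf1*. All 9 were present among the 12067 genes of the count table. Counts came from Quant-seq, a 3′ RNA sequencing method that primes on the poly-A tail and so yields reads near the 3′ end of each transcript, of KL cells (lineage-negative, c-Kit-positive, Sca-1-negative myeloid progenitors) sorted as CD45.2+ donor cells from the bone marrow of transplanted mice. The mutant group, BcorΔE9-10, comprised 2 libraries of the genotype scl-Cre-ERT +; Bcorfl/y, in which Cre removes exons 9 and 10 of the X-linked *Bcor* gene and leaves a truncated protein. The control group, BcorWT, comprised 2 libraries of the genotype Bcorfl/y, which carry the same floxed allele without the Cre. The Cre is driven by a *Scl* (*Tal1*) regulatory sequence active in haematopoietic stem cells and is activated by tamoxifen, of which donors received 5 mg in total at 3 to 6 months of age, controls included. Animals for molecular work were male, and donor cells were given to female *Ptprca* recipients, a C57BL/6 congenic strain marked by CD45.1, after 5.5 Gy of irradiation. The study's transplants of bone marrow were read after 20 weeks, and the labels do not say whether these libraries come from that transplant. The labels do not say whether each library is 1 recipient or a pool, so p-values measure the spread between libraries. With 2 libraries per genotype, each gene gives only 1 difference within each genotype. The edgeR test used here also draws on the spread of other genes.

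Myeloid progenitors choose between the granulocyte and the monocyte lineage through a small network of transcription factors that activate their own programme and repress the other. PU.1 is the ETS-family master regulator of the myeloid lineages, and Irf8 acts beside it to drive monocyte and dendritic cell development. Gfi1, a zinc finger repressor, restrains monocyte genes and is required for neutrophil development. Klf4 and Zeb2 act on the monocyte and dendritic side, Id2 sequesters E proteins and is itself a known target of repression by Gfi1, Ikzf1 (Ikaros) is a zinc finger factor best known from lymphoid and myeloid precursors, and Etv6 and Elf1 are a repressor and an activator of the ETS family.

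Of the 9 factors, *Id2*, *Gfi1* and *Etv6* were higher in both BcorΔE9-10 libraries than in both BcorWT libraries, and *Irf8* was lower, though not without the TMM scaling factors. Over all genes the groups did not overlap for 33.9%, 16.8% higher and 17.1% lower, so 4 of 9 is near the background. Their promoters, 250 bases before to 50 after the transcription start as given by RefSeq on GRCm38.p6, are shown because these are the members whose groups did not overlap. Each is printed 5′ to 3′ on the strand of the gene. Capitals mark GGAA, the core of ETS-family sites such as those of PU.1, and AATC, the core of Gfi1 sites, on either strand (TTCC and GATT on the other strand).
Id2, chr12:25096043-25096342, minus strand: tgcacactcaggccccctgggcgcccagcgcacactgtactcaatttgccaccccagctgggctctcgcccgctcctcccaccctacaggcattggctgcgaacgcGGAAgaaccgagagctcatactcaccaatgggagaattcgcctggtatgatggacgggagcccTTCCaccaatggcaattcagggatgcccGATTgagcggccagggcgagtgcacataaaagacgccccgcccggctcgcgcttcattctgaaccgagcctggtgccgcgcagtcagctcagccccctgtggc
Gfi1, chr5:107725756-107726055, minus strand: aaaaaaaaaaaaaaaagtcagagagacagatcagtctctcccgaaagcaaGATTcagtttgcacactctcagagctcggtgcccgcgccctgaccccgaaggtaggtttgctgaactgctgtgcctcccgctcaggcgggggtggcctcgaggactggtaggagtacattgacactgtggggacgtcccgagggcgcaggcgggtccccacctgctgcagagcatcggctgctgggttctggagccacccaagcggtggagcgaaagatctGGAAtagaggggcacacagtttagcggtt
Etv6, chr6:134035450-134035749, plus strand: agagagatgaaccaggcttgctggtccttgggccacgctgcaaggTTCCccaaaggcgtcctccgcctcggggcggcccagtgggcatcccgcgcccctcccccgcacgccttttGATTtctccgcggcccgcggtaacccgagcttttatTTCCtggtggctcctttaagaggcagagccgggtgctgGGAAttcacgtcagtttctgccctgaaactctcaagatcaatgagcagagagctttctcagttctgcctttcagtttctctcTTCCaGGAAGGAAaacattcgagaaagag
Irf8, chr8:120736108-120736407, plus strand: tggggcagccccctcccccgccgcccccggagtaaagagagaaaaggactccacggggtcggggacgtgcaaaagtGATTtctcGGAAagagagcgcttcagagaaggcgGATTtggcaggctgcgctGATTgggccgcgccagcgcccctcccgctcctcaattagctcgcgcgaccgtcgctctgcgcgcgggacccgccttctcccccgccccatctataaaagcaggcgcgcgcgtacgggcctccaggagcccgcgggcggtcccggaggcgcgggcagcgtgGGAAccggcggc

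Where RefSeq lists several starts, as for *Gfi1* and *Irf8* (2 each), the most upstream was taken. The *Id2* window held 2 GGAA and 1 AATC, and the *Gfi1* window held 1 of each. In the *Etv6* window there were 6 GGAA, a number reached by 15.7% of 27018 promoter windows of the same length, and 1 AATC. The *Irf8* window held 2 GGAA and 3 AATC, and 23.0% of windows had as many AATC. At least 1 GGAA stood in 96.0% of all windows and at least 1 AATC in 73.7%. The longer PU.1 core GAGGAA, which contains GGAA and occurs in 28.3% of windows, and the ETS-IRF composite element, in 2.79% of windows, were in none of these 4 windows on either strand. Windows were found for 8 of the 9 members, and *Spi1* is named only. The windows not printed held 4 GGAA for *Zeb2*, 2 for *Klf4*, 2 for *Elf1* and 0 for *Ikzf1*. They held 4 AATC for *Zeb2*, more than for *Irf8* and reached by 10.5% of windows, and 0 for *Klf4*, *Elf1* and *Ikzf1*. *Zeb2* was the only 1 of the 8 with GAGGAA.

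The deletion itself cannot be checked in these counts, because it removes internal exons. *Bcor* had 104 and 113 counts in BcorΔE9-10 and 58 and 79 in BcorWT. Library totals ranged from 3825289.5 to 6253100.5 counts, so that 3 counts correspond to between 0.489 and 0.876 CPM (counts per 1000000, here scaled by TMM factors of 0.895 to 1.07). The non-coding transcript *Gm42418* held 27.9% of the counts in BcorWT replicate 1 and 1.43% in BcorWT replicate 2, against 16.3% and 14.3% in BcorΔE9-10 replicates 1 and 2. The 2 BcorWT libraries were less alike than the 2 BcorΔE9-10 libraries, with a median absolute log2 difference of 0.59 against 0.31 over the 11979 genes counted in every library. Markers of KL progenitors were present in every library, *Mpo* at 4284 to 6888 CPM and *Kit* at 29.4 to 61.9 CPM. Of the 6 listed, 2 were higher and 4 lower in BcorΔE9-10, and 0 had an unadjusted p under 0.05 in edgeR. *Cd34* and *Flt3* were lower in both BcorΔE9-10 libraries than in both BcorWT libraries, as were 17.1% of all genes. *Ly6a*, which encodes Sca-1, was among the 4 lower, with 0 to 20 counts. It is listed because it should be low in these Sca-1-negative cells. Transcripts of mature neutrophils were abundant too, with *S100a8* between 31874 and 72238 CPM. In bulk RNA, fewer cells of a type and less RNA per cell cannot be told apart.

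In edgeR's quasi-likelihood test adjusted over all genes, 0 of the 9 factors passed an adjusted p of 0.05, where 0.0166% of all genes did (2 genes). Without adjustment 1 of the 9, *Id2*, had a p under 0.05, beside 4.42% of all genes. By direction, 1 of the 9 was higher in BcorΔE9-10 at that p (1.34% of all genes) and 0 were lower (3.07% of all genes). The groups did not overlap for 4 of the 9 factors, beside 33.9% of all genes, 3 of them higher in BcorΔE9-10 (16.8% of all genes) and 1 lower (17.1% of all genes). The median log2 fold change of the 9 was 0.25, against -0.03 over all genes. All 9 were well counted, with 158 to 2127 counts per library, and the lowest stood at percentile 76.9 of mean expression. Intervals on a library's CPM are exact 95% Poisson intervals and cover counting error only, since no molecular identifiers are described.

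**Figure D1:**
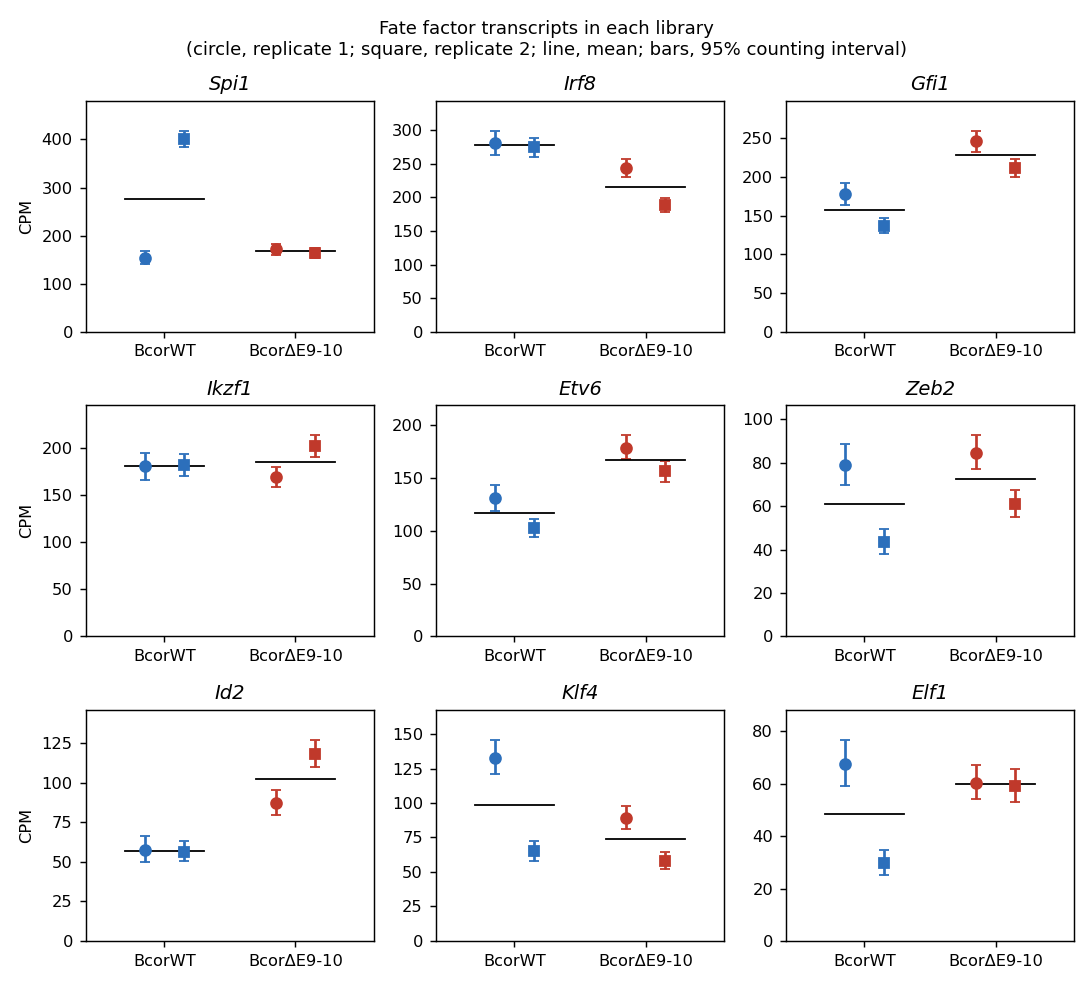
Level of each fate factor (CPM, linear axis from 0) in the 2 BcorWT and 2 BcorΔE9-10 libraries, with 95% Poisson counting intervals and the mean of each genotype as a line. *Id2*, *Gfi1* and *Etv6* lie higher in both BcorΔE9-10 libraries, *Irf8* lies lower, and *Spi1* stands out in BcorWT replicate 2 alone.

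*Spi1* (ENSMUSG00000002111, chromosome 2 from 91082390 to 91115756 on GRCm38) was set apart by a single library. It had 928 and 1005 counts in BcorΔE9-10 replicates 1 and 2 and 527 and 2127 counts in BcorWT replicates 1 and 2. Its level was 172 and 164 CPM in BcorΔE9-10, 154 CPM in BcorWT replicate 1 and 400.3 CPM in BcorWT replicate 2. BcorWT replicate 2 was thus the highest library by a wide margin (counting interval 383 to 418 CPM), whereas the intervals of BcorWT replicate 1 (141 to 168 CPM) and both BcorΔE9-10 libraries (161 to 183 and 154 to 174 CPM) overlapped. BcorΔE9-10 was lower by a log2 fold change of -0.73 with an error of 0.46 (unadjusted p = 0.155, edgeR adjusted p = 0.945). It was 0.12 without BcorWT replicate 2 and -1.26 without BcorWT replicate 1, where the edgeR adjusted p was 0.0342, the lowest of the alternatives, which ran up to 1.00. The 2 BcorWT libraries differed by 1.38 on the log2 scale for *Spi1*, and 13.7% of all genes differed more between them. No direction of *Spi1* with genotype can be read from these libraries.

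*Irf8* (ENSMUSG00000041515, chromosome 8 from 120736358 to 120756694) was lower in BcorΔE9-10. It was counted 1319 and 1155 times in BcorΔE9-10 and 960 and 1458 times in BcorWT, which gave 244 and 188 CPM against 280.3 and 274 CPM. The BcorWT libraries were nearly level, with overlapping counting intervals (263 to 299 and 260.5 to 289 CPM), and BcorΔE9-10 replicate 2 was the lowest. The 2 BcorΔE9-10 libraries differed by -0.37 on the log2 scale (replicate 2 minus replicate 1), about as much as the genotypes did. Its mean was 216 ± 39.2 CPM (SD, n = 2) in BcorΔE9-10 and 277 ± 4.23 CPM (SD, n = 2) in BcorWT. On the log2 scale the difference was -0.36, with a standard error of 0.32 (edgeR adjusted p = 0.945), and refits on 3 libraries gave values from -0.56 to -0.18. Without the TMM factors the groups overlapped, at 261 and 185 CPM against 251 and 292 CPM.

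*Gfi1* (ENSMUSG00000029275, chromosome 5 from 107716657 to 107726036) went the other way. It had 1330 and 1294 counts in BcorΔE9-10 and 609 and 729 counts in BcorWT, or 246 and 211 CPM against 178 and 137 CPM. Both BcorΔE9-10 libraries were above both BcorWT libraries, and no 2 of the 4 counting intervals overlapped. The mean was 228 ± 24.7 CPM (SD, n = 2) against 158 ± 28.8 CPM (SD, n = 2), a 1.45-fold difference. On the log2 scale the fold change was 0.54, with an error of 0.32 and an unadjusted p of 0.137 (0.945 after adjustment in edgeR). Refits on 3 libraries placed it between 0.36 and 0.73.

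Because *Irf8* and *Gfi1* act on opposite sides of the same choice, their counts were also set against each other within each library, which no scaling between libraries can alter. There were 0.992 and 0.893 *Irf8* counts per *Gfi1* count in BcorΔE9-10, and 1.58 and 2.00 in BcorWT. The ratio was near even in both mutant libraries and tilted towards *Irf8* in both control libraries. Because *Gfi1* was higher and *Irf8* lower in both mutant libraries after TMM scaling, this separation restates those results and is not independent of them. The mean difference (BcorΔE9-10 minus BcorWT) was -0.92 on the log2 scale, a 1.89-fold lower ratio in BcorΔE9-10, with SDs of 0.11 and 0.24 (n = 2 each). Omitting any 1 library moved it no further than -1.09 or -0.74. An exact two-sided permutation test gave p = 0.333, the smallest that this test can give with 2 against 2 libraries, so it cannot fall under 0.05 here. For *Spi1* against *Gfi1* the ratio was 0.698 and 0.777 in BcorΔE9-10 and 0.865 and 2.92 in BcorWT. That difference was -1.11 with all libraries but -0.23 without BcorWT replicate 2 and -1.99 without BcorWT replicate 1, and the exact permutation p with all libraries was again 0.333.

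**Figure D2:**
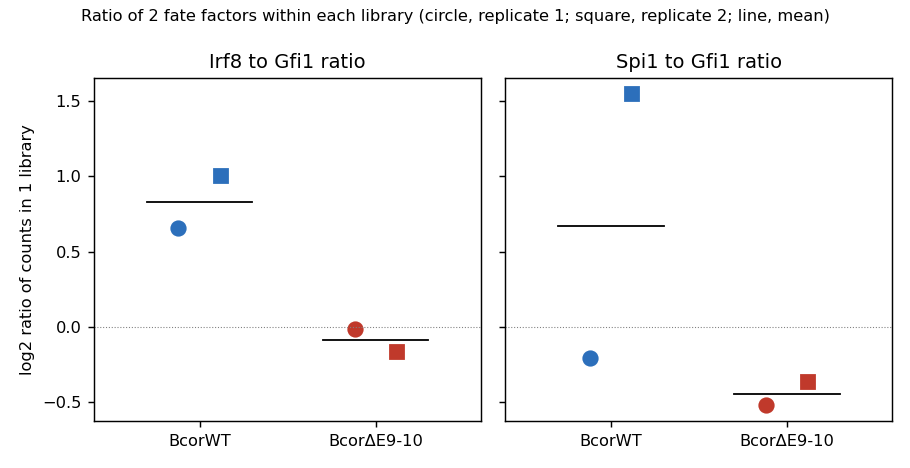
Log2 ratio of the counts of *Irf8* to *Gfi1* (left) and *Spi1* to *Gfi1* (right) within each library, with the mean of each genotype as a line. The *Irf8* ratio is 0.66 and 1.00 in BcorWT and -0.01 and -0.16 in BcorΔE9-10, while the *Spi1* ratio is set apart mainly by BcorWT replicate 2 at 1.54.

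*Id2* (ENSMUSG00000020644, chromosome 12 from 25093799 to 25097140) had the largest log2 fold change of the 9 with all 4 libraries, though not in 3 of the 4 refits that left 1 out. It had 471 and 725 counts in BcorΔE9-10 and 198 and 300 counts in BcorWT. This corresponded to 87.0 and 118 CPM against 57.8 and 56.5 CPM. The BcorWT libraries were level within counting error, and both BcorΔE9-10 libraries lay above them and apart from each other. Mean levels were 103 ± 22.0 CPM and 57.1 ± 0.967 CPM (SD, n = 2 each), a 1.80-fold difference. On the log2 scale this was 0.84 ± 0.32 (standard error), with an unadjusted p of 0.0313 and an adjusted p of 0.945 over all genes in edgeR. Refits on 3 libraries spanned 0.61 to 1.05, and the unadjusted edgeR p was above 0.05 without either BcorΔE9-10 library (0.0853 and 0.320 without replicates 1 and 2) and with the replicate number as a block (0.0552). For the other 2 Id genes measured the groups overlapped, *Id1* being at 35.5 and 51.8 CPM in BcorΔE9-10 against 61.3 and 35.8 CPM in BcorWT. *Id3* was at 5.17 and 3.42 CPM against 4.09 and 9.03 CPM.

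*Etv6* (ENSMUSG00000030199, chromosome 6 from 134035700 to 134270158) followed *Gfi1* closely. It was counted 968 and 960 times in BcorΔE9-10 and 449 and 546 times in BcorWT, at 179 and 156 CPM against 131 and 103 CPM. The groups did not overlap, and the means of 168 ± 15.8 and 117 ± 20.1 CPM (SD, n = 2 each) differed 1.43-fold. On the log2 scale this was 0.52 ± 0.32 (standard error), with an edgeR adjusted p of 0.945, and refits on 3 libraries lay at 0.35 to 0.70.

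For *Elf1*, *Zeb2* and *Klf4* the BcorWT libraries differed by more than the genotypes did. *Elf1* (ENSMUSG00000036461, chromosome 14 from 79481194 to 79582494) had 327 and 363 counts in BcorΔE9-10 and 231 and 158 in BcorWT, or 60.4 and 59.2 CPM against 67.5 and 29.7 CPM. BcorWT replicate 2 was the lowest library, while the intervals of the other 3 overlapped. Its log2 fold change of 0.31 (standard error 0.42) went from -0.17 without BcorWT replicate 2 to 1.00 without BcorWT replicate 1. *Zeb2* (ENSMUSG00000026872, chromosome 2 from 44983632 to 45117395) had 457 and 374 counts against 270 and 231, or 84.5 and 61.0 CPM against 78.8 and 43.5 CPM. Replicate 1 was the higher in both genotypes and the groups overlapped, and the log2 difference of 0.25 ± 0.39 (standard error) spanned -0.12 to 0.74 over refits on 3 libraries. *Klf4* (ENSMUSG00000003032, chromosome 4 from 55527143 to 55532466) had 483 and 356 counts against 455 and 345, or 89.3 and 58.0 CPM against 133 and 64.9 CPM. Here too replicate 1 was the higher in each genotype, and the log2 fold change of -0.42 (standard error 0.43) was 0.18 without BcorWT replicate 1.

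*Ikzf1* (ENSMUSG00000018654, chromosome 11 from 11685003 to 11772926) was the most even of the 9. It had 914 and 1238 counts in BcorΔE9-10 and 618 and 967 counts in BcorWT, at 169 and 202 CPM against 180.5 and 182 CPM. Both control libraries lay between the mutant libraries. Its log2 difference of 0.03 ± 0.31 (standard error) spanned -0.10 to 0.16 over refits on 3 libraries.

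**Figure D3:**
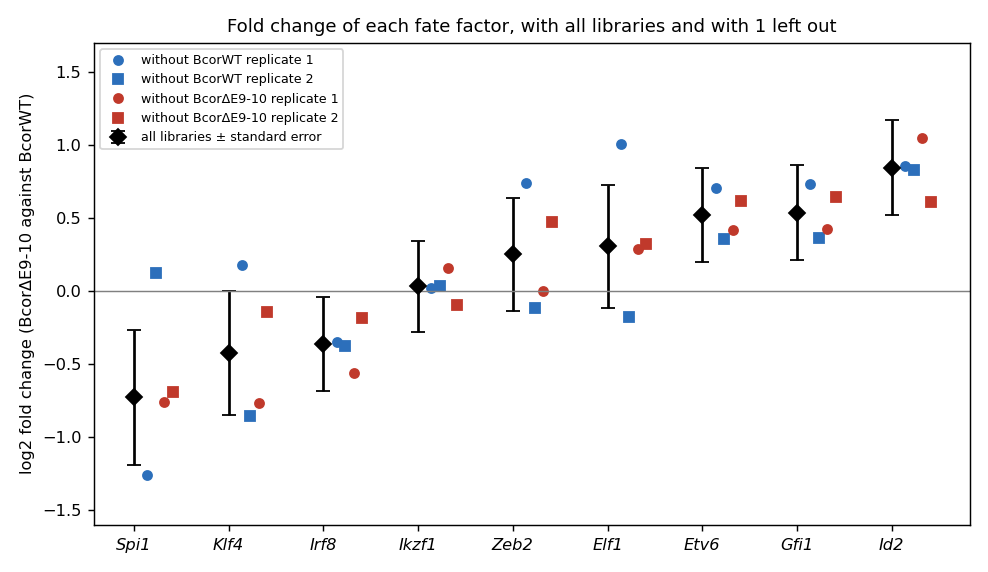
Log2 fold change of each fate factor (BcorΔE9-10 against BcorWT) from edgeR with all 4 libraries (diamonds, bars of 1 standard error) and with each library left out (coloured points). *Id2*, *Gfi1*, *Etv6* and *Irf8* keep their sign in all 4 refits, while *Spi1*, *Klf4*, *Ikzf1*, *Zeb2* and *Elf1* cross 0 in at least 1.

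Reads of these genes could in principle be shared with others. In GENCODE M21, 4 of the 9 overlap exons of another gene, *Gfi1* by 101 bases, *Etv6* by 135, *Zeb2* by 658 and *Elf1* by 327, and 0 of these bases fall in the last exon, where 3′ reads gather. The sources used here do not state whether counting used the strand. The last 500 bases of the longest coding transcript of each member matched no transcript of another gene at 95% identity or more over at least 100 bases.

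Over the 4 libraries, the genes with a mean of at least 20 CPM (5900 genes) were ranked by the Euclidean distance of their centred log2 CPM from *Spi1*, *Irf8* and *Gfi1*. The gene closest to *Gfi1* was *Etv6*, at a distance of 0.03, followed by *Oser1* and *Atg12* at 0.07 and 0.08. Closest to *Spi1* were *Stom*, *Gtpbp1* and *Miip*, at 0.05, 0.06 and 0.08, all with the same high value in BcorWT replicate 2 (*Stom* at 115 CPM there and 45.8 to 51.0 CPM elsewhere). Closest to *Irf8* were *C1qbp*, *Calr* and *Mir7678*, at 0.05, 0.06 and 0.06. With 4 points, such likeness is a description only.

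The relatives of the members were read as lists. Over all genes, 5750 were higher and 6317 lower in BcorΔE9-10, with a median log2 fold change of -0.03. Of 13 other ETS genes, 11 were in the table, and 8 of these were higher and 3 lower in BcorΔE9-10, with a median log2 fold change of 0.27. Only *Elk1*, a serum response partner, had an unadjusted p under 0.05 (0.00969), at 6.10 and 6.36 CPM against 11.7 and 33.3 CPM (-1.86 ± 0.55 on the log2 scale, edgeR adjusted p = 0.945). The best expressed were *Fli1*, a regulator of stem cells and megakaryocytes, at 101 and 118 CPM against 106 and 69.1 CPM, and *Ets1* at 63.2 and 113 CPM against 102 and 58.1 CPM. Neither separated the genotypes.

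Among the other interferon regulatory factors 6 of 8 were measured, 2 higher and 4 lower, with 0 of 6 at an unadjusted p under 0.05 and a median of -0.18. *Irf1* was at 137 and 131 CPM in BcorΔE9-10 against 106 and 215 CPM in BcorWT, and *Irf5* at 102 and 89.7 CPM against 102 and 67.6 CPM. Both measured Ikaros relatives, *Ikzf2* (Helios) and *Ikzf5* (Pegasus), were higher in both BcorΔE9-10 libraries, as were 16.8% of all genes. Neither had an unadjusted p under 0.05 in edgeR. *Ikzf2* was at 20.3 and 15.5 CPM against 14.9 and 5.08 CPM, and *Ikzf5* at 56.0 and 55.3 CPM against 45.0 and 32.6 CPM. Of 6 other Id and E protein genes 5 were measured, 2 higher and 3 lower, and 0 had an unadjusted p under 0.05 (median -0.15). *Tcf4*, an E protein gene of the dendritic lineage, was at 47.7 and 38.3 CPM against 55.5 and 28.0 CPM.

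All 8 other Klf genes were measured, 6 higher and 2 lower, with a median of 0.31. *Klf1*, the erythroid Klf factor, had 24 and 17 counts in BcorΔE9-10 against 1 and 4 in BcorWT, an unadjusted p of 0.0156 and an edgeR adjusted p of 0.945. *Klf2* was at 188 and 223 CPM against 382 and 287 CPM (log2 fold change -0.70, unadjusted p = 0.0675), and *Klf6* was the most abundant at 408 to 784 CPM. Of the 9 relatives and corepressors of Gfi1 and Zeb2, 5 were higher and 4 lower (median 0.12). *Ehmt2*, a histone H3K9 methyltransferase that Gfi1 recruits, was at 36.8 and 32.9 CPM against 46.1 and 99.4 CPM (log2 fold change -1.07, unadjusted p = 0.0333, edgeR adjusted p = 0.945). The corepressor genes *Hdac1* and *Ctbp1* were at 170.3 to 228 and 186 to 306 CPM, both highest in BcorWT replicate 2.

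Known partners and targets of the members were read in the same way. Of the 10 measured partners and antagonists of PU.1, 3 were higher and 7 lower, with 0 at an unadjusted p under 0.05 and a median of -0.01. *Jun*, a coactivator of PU.1, was at 1857 and 1476 CPM in BcorΔE9-10 against 2041 and 1305 CPM in BcorWT, and *Egr1* at 442 and 261 CPM against 478 and 239 CPM, so that replicate 1 was the higher in each genotype for both. Of 15 target genes of PU.1 and Irf8, 5 were higher and 10 lower, 0 had an unadjusted p under 0.05 and the median was -0.11. *Lyz2*, which encodes lysozyme, was at 865 and 2291 CPM against 1074 and 2355 CPM, and *Cybb*, which encodes a subunit of the phagocyte oxidase, at 311 and 821 CPM against 509 and 699 CPM. Both were higher in replicate 2 than in replicate 1 of each genotype.

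Of 8 genes listed as repressed by Gfi1, *Id2* not among them because it is one of the fate factors, 7 were measured, 2 higher and 5 lower, with a median of -0.03. *Hoxa9*, a homeobox gene of stem and progenitor cells, was at 60.4 and 50.04 CPM in BcorΔE9-10 against 17.2 and 13.2 CPM in BcorWT (1.87 ± 0.34 on the log2 scale, edgeR adjusted p = 0.419). *Csf1* and *Csf1r*, a cytokine of the monocyte lineage and its receptor, were lower in both BcorΔE9-10 libraries, as were 17.1% of all genes. *Csf1* was at 3.70 and 4.56 CPM against 6.42 and 9.03 CPM, and *Csf1r* at 28.3 and 27.7 CPM against 35.6 and 53.3 CPM, with unadjusted edgeR p-values of 0.124 and 0.0839. Of 10 neutrophil granule genes, 4 were higher and 6 lower, 0 had an unadjusted p under 0.05 and the median was -0.08. *S100a8* was at 31874 and 72238 CPM against 44423 and 44112 CPM, and *S100a9* at 13145 and 38379 CPM against 21491 and 32200 CPM. Of the 111 genes in these and the marker lists, 0 changed sign with DESeq2's size factors or without *Gm42418*.

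**Figure D4:**
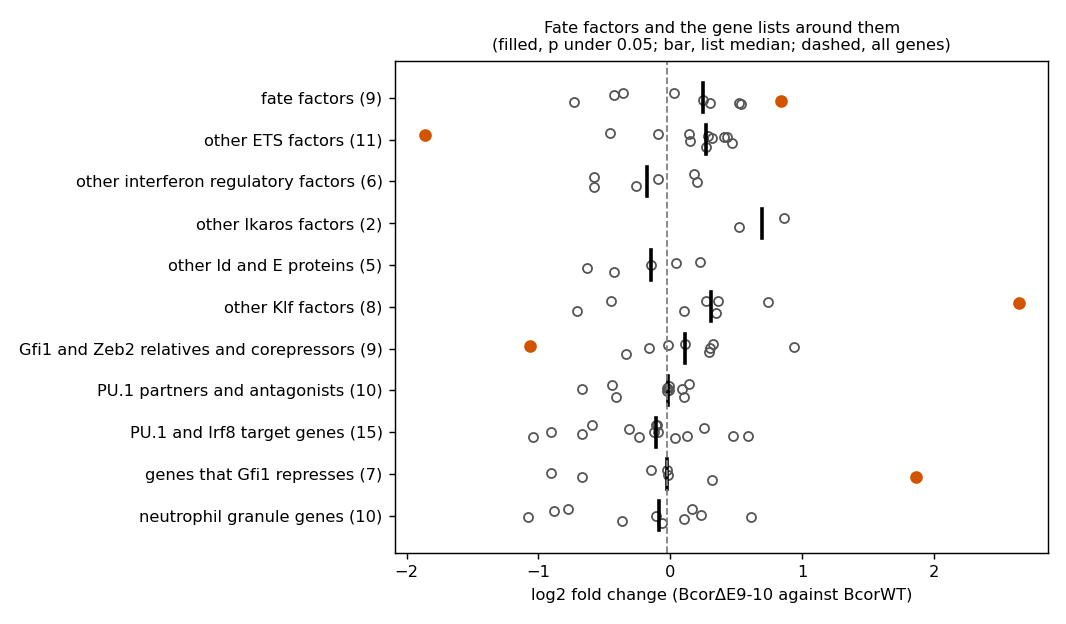
Log2 fold changes (BcorΔE9-10 against BcorWT) of the fate factors and of the lists around them, with the number of measured genes in brackets, filled points for an unadjusted p under 0.05, a bar at each list's median and a dashed line at the median of all genes (-0.03). The only filled points are *Id2*, *Elk1*, *Klf1*, *Ehmt2* and *Hoxa9*, and 0 of the genes drawn pass adjustment over all genes.

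Markers of other cell types differed between the libraries alongside the fate factors. All 6 genes of the eosinophil, basophil and mast cell list were lower in BcorΔE9-10, their summed level being 265 and 224 CPM there and 552 and 677 CPM in BcorWT, and 4 of them had an unadjusted p under 0.05 (*Mcpt8*, *Prss34*, *Cpa3* and *Epx*). *Mcpt8*, a basophil protease gene, was at 27.5 and 36.2 CPM in BcorΔE9-10 against 131 and 116 CPM in BcorWT (edgeR adjusted p = 0.419). The 5 measured erythroid genes (4 higher and, for *Gata1* at a log2 fold change of -0.02, 1 lower) summed to 101 and 77.1 CPM in BcorΔE9-10 and to 27.7 and 23.7 CPM in BcorWT, with 3 of them (*Car2*, *Car1* and *Klf1*) at an unadjusted p under 0.05. *Car2*, a carbonic anhydrase gene, was at 47.5 and 38.3 CPM against 11.7 and 4.33 CPM (edgeR adjusted p = 0.664). Monocyte and dendritic markers (6 measured, 5 lower) summed to 530 and 583 CPM in BcorΔE9-10. In BcorWT the sums were 658 CPM in replicate 1 and 1503 CPM in replicate 2, the library in which *Spi1* was high. Most of each sum was *Ly6c2*, at 429 and 491 CPM in BcorΔE9-10 against 550.5 and 1365 CPM in BcorWT. *F13a1* was at 60.1 and 51.3 CPM against 59.9 and 62.9 CPM. BcorWT replicate 2 was the highest library for 4 of the 6 genes, beside 34.5% of all genes. Sums for mature neutrophils (6 measured, 2 higher and 4 lower) ranged from 49885 to 115876 CPM in BcorΔE9-10 and from 72379 to 109254 CPM in BcorWT. The 3 measured megakaryocyte genes had fold changes below 0 and summed to 49.0 and 31.9 CPM against 47.3 and 78.5 CPM, and *Pf4* had an unadjusted p of 0.0263. Few lymphoid markers were measured, 3 of 6 for B cells (13.4 to 32.3 CPM) and 2 of 6 for T and NK cells (136 to 275 CPM, almost all *Nkg7*). *Xist*, which male donor cells should lack, was at 2.40 and 3.91 CPM in BcorΔE9-10 and 18.7 and 19.0 CPM in BcorWT. The part of these cells in the differences of *Id2*, *Gfi1*, *Etv6* and *Irf8* was not tested.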

How the data were processed

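The authors filtered reads on quality, trimmed them with cutadapt, mapped them to mm10 (GRCm38) with HISAT2, assigned reads to genes with featureCounts (Subread) and deposited unnormalised counts for the 4 libraries. In BcorΔE9-10 replicate 2 and BcorWT replicate 1 the deposited values were taken for estimated counts, since 1 gene in each was not whole, and were rounded. The members and gene lists were chosen with earlier results of these data known.

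Counts were tested with edgeR 4.0.16 (R 4.3.3) using filterByExpr, which removed 0 genes, TMM factors, a quasi-likelihood fit on genotype, a prior count of 0.125 and Benjamini-Hochberg adjustment over 12067 genes. The standard error is the log2 fold change divided by the square root of F. The distance between genes used log2(CPM + 1). Named genes were the members, list genes with an unadjusted p under 0.05 or among the 2 most expressed, and the 3 genes nearest to *Spi1*, *Irf8* and *Gfi1*, while other genes, such as *Id3* and *Kit*, were chosen after their values were seen. Alternatives used limma-voom (limma 3.58.1), DESeq2 1.42.0, other scalings and filters, and each library left out. On simulated counts edgeR recovered 107 of 111 genes changed by 3 and 32 of 89 changed by 1.5 on the log2 scale. There were 4 false calls, with 11787 genes tested. The simulation gave both genotypes the same spread, whereas the BcorWT libraries here were less alike, and it changed only well counted genes. It held no change as small as those of the members, so it does not tell how often such changes would be found. Positions are from GENCODE M21, and promoters from RefSeq (GRCm38.p6). Figures used matplotlib 3.10.9. Marker lists are given by their sums and counts, with values for only some of the genes that the rule selects, and 1 gene of the other lists that it selects is not reported here.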

Additional observations from a re-analysis of the deposited data

How the results depend on the processing

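Across 12 alternatives and 9 members, 102 of 108 log2 fold changes kept their direction. All 6 that did not left out 1 library, and the ranges over such refits were -1.26 to 0.12 for *Spi1*, -0.10 to 0.16 for *Ikzf1*, -0.12 to 0.74 for *Zeb2*, -0.85 to 0.18 for *Klf4* and -0.17 to 1.00 for *Elf1*. The other scalings, filters and tools reversed 0. Among these, the setting without a filter repeated the reported fit, since the filter removed 0 genes. A prior count of 2 left each p-value unchanged and moved the fold changes only slightly towards 0. Neither setting could reverse a direction. Only *Spi1* without BcorWT replicate 1 reached an adjusted p under 0.05, in a refit where the lone BcorWT library is assumed to vary like the BcorΔE9-10 libraries. The number of all genes with an adjusted p under 0.05 was 2 in the reported fit, 5 with at least 10 counts in every library (10424 genes tested), 4 with limma-voom and 43 with DESeq2, and 6 to 596 with 1 library left out, most without BcorWT replicate 1 (34, 30 and 6 without BcorΔE9-10 replicate 2, BcorWT replicate 2 and BcorΔE9-10 replicate 1). With the replicate block it was 14, and the number of members with an unadjusted p under 0.05 was 0 in place of 1; same-numbered libraries share only a number (correlation of their deviations -0.08). With 1 library left out that number was 0 to 6, 6 without BcorWT replicate 1, 2 without BcorWT replicate 2 and 0 without either BcorΔE9-10 library. The cause was not tested. The 4 members whose groups did not overlap were the same 4 with DESeq2's size factors and without *Gm42418*, and 3 of them, all but *Irf8*, with total counts. With 2 libraries per genotype, the difference between the BcorWT libraries exceeded the fold change for 4 of the 9 members (*Spi1*, *Zeb2*, *Klf4* and *Elf1*) and that between the BcorΔE9-10 libraries for 4 (*Irf8*, *Ikzf1*, *Zeb2* and *Klf4*).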
